A study of Homo sapiens with 8 samples.

Results

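Bivalent promoter islands of PC9 cells were examined, which are stretches of H3K27me3 under 40 kb that held the start of a protein-coding gene and also carried H3K4me3. The PC9 line was established from a human adenocarcinoma of the lung, a non-small cell lung cancer (NSCLC). Cells were treated for 5 days with the vehicle DMSO or with 1 μM GSK126, a small molecule inhibitor of the methyltransferase EZH2, and per the labels the groups of a mark differed in treatment only. The marks H3K27me3 and H3K4me3 were measured by chromatin immunoprecipitation and sequencing (ChIP-seq) in 2 libraries per mark and treatment, 8 libraries in all, and chromatin from Drosophila OSS cells had been added to allow a spike-in normalization. The deposited data were 14 lists of islands called per library with the SICER algorithm, in which windows of 200 bp rich in sequencing tags are joined into islands, and each island has a score that grows with its tags and its length. A member was an island of the H3K27me3 DMSO replicate 1 spike-in list that overlapped a replicate 2 island, was shorter than 40 kb, held a gene start of the GENCODE annotation on GRCh37 and overlapped an H3K4me3 island in both DMSO replicates. Of 35901 islands in that list, 32479 were found in both DMSO replicates and 756 were members.

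H3K27me3 is written by Polycomb repressive complex 2, whose catalytic subunit is EZH2, and it marks genes that are held silent. H3K4me3 is written by the SET1 and MLL methyltransferases and marks the promoters of genes that are transcribed or poised for transcription. A promoter with both marks is called bivalent, a state best known from CpG-rich promoters of developmental regulators in embryonic stem cells and found at many genes in cancer cells. ChIP-seq of a cell population cannot tell both marks on the same nucleosome from each mark in different cells or on different alleles.

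The 756 members held 853 gene starts, which were 4.23% of the 20144 protein-coding gene starts in the annotation. There were 666 members with 1 gene start, 83 with 2 and 7 with 3. Their median length was 7.1 kb (interquartile range 4.2 to 13.2 kb), the shortest was 0.6 kb, the longest was 39.8 kb, and together they covered 7.504 Mb. Islands chosen by the same rule except that H3K4me3 was absent from both DMSO replicates numbered 1707 and served as the comparison, with a median length of 7.6 kb. A further 177 promoter islands had H3K4me3 in 1 replicate only, and 58 bivalent promoter islands were 40 kb or longer. The longest members were those at COL2A1, the main collagen gene of cartilage, with 39.8 kb, UBE2QL1, a ubiquitin-conjugating enzyme family gene, with 39.2 kb, and TMEM132B, a membrane protein gene, with 38.8 kb. Just outside the limit were EPHB3, an ephrin receptor gene, with 40.4 kb, and CACNA1I, a T-type calcium channel gene, with 41.2 kb.

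The line was checked against markers at gene starts. KRT8, KRT18, CDH1 and EGFR, all typical of epithelial tumour cells, had H3K4me3 within 2 kb in both DMSO replicates, and EPCAM had it in replicate 1 only. EGFR also had H3K27me3 within 2 kb in replicate 2. The leukocyte gene PTPRC had neither mark, and the T lymphocyte gene CD3E had H3K27me3 without H3K4me3. Among lung lineage genes, NKX2-1, the lung and thyroid homeobox factor, and SFTPC, a surfactant protein gene, lay in members, NAPSA had H3K27me3 only and SFTPB had neither mark. COL1A1, a fibroblast collagen gene, also lay in a member.

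The promoter sequences of 6 members show the range of CpG content that is described with the results. Each line gives the 250 bases before the annotated gene start on the strand of the gene, read from GRCh37, with CG dinucleotides in capitals. INHBB (chr2:121103462-121103711, plus strand) is a CpG-rich promoter whose member had an H3K27me3 spike-in island with GSK126 in both replicates. HES5 (chr1:2461703-2461952, minus strand) is a CpG-rich promoter at which H3K4me3 covered less with GSK126. KCNF1 (chr2:11051810-11052059, plus strand) and EOMES (chr3:27764203-27764452, minus strand) had no H3K27me3 spike-in island with GSK126. LFNG (chr7:2551913-2552162, plus strand) and PROC (chr2:128175753-128176002, plus strand) are CpG-poor starts that H3K4me3 islands did not cover.
INHBB: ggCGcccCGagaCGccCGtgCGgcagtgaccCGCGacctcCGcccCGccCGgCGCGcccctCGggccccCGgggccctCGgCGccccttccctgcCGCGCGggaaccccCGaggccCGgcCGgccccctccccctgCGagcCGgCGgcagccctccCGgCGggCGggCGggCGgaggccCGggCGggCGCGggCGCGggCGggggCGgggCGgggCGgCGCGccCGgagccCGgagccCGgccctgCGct
HES5: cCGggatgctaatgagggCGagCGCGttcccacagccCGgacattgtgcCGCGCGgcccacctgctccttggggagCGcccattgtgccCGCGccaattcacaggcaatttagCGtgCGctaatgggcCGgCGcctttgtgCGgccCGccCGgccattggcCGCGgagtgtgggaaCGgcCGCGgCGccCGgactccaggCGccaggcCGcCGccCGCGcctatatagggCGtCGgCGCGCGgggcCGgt
KCNF1: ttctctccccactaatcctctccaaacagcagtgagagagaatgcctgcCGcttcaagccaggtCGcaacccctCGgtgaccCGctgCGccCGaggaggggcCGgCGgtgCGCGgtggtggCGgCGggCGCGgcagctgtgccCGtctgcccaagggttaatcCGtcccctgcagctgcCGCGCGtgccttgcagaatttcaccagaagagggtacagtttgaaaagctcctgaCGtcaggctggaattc
EOMES: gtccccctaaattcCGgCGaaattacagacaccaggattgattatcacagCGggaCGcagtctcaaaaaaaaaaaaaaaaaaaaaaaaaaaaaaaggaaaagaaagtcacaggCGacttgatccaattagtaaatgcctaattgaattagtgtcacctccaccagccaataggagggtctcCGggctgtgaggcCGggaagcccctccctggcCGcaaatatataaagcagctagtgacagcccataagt
LFNG: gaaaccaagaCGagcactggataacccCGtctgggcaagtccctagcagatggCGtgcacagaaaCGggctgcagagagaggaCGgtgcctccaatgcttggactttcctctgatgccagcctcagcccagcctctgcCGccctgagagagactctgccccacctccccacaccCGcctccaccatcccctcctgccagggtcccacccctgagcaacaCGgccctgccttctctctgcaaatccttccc
PROC: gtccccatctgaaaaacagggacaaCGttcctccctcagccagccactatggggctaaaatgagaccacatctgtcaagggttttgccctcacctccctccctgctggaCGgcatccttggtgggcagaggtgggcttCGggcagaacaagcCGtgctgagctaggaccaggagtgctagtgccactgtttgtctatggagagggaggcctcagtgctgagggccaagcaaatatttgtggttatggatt
These windows held 46 CG dinucleotides at INHBB, 36 at HES5, 20 at KCNF1, 8 at EOMES, 8 at LFNG and 4 at PROC. No annotated exon lay in any of these windows. The sequence TATAAA, the core of the TATA box, was found in these windows at EOMES only.

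The gene starts of members were richer in CpG than those of promoter islands without H3K4me3. In the 1 kb centred on the start, the ratio of observed to expected CpG had a median of 0.733 (interquartile range 0.558 to 0.842, n = 853 starts), compared with 0.361 for the 1836 starts in promoter islands without H3K4me3 and 0.685 for all 20144 starts. Starts with H3K4me3 in both DMSO replicates and no H3K27me3 island within 2 kb had a median of 0.773 (n = 10577). A ratio of 0.6 or more, a common limit for a CpG island, was reached by 71.3% of member starts, by 83.9% of starts with H3K4me3 alone, by 31.6% of those in promoter islands without H3K4me3 and by 59.7% of all starts. The position of H3K4me3 divided the members further, with a median of 0.763 for the 595 starts that an H3K4me3 island covered in both replicates and 0.395 for the 142 starts that it covered in neither. PROC with 0.237 and LFNG with 0.228 belonged to the latter, whereas INHBB reached 0.995.

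**Figure D1:**
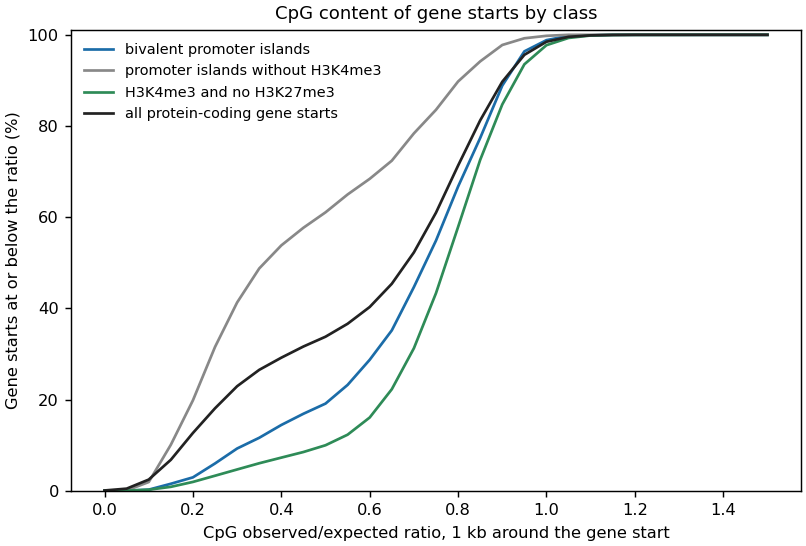
Cumulative share of gene starts (vertical axis, %) by the ratio of observed to expected CpG in 1 kb around the start (horizontal axis), for 4 classes of gene starts. The curve of bivalent promoter islands runs, up to a ratio of 0.9, between that of all starts and that of starts with H3K4me3 alone, and to the right of promoter islands without H3K4me3, with medians of 0.733, 0.685, 0.773 and 0.361.

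Short motifs were counted on both strands of the 250 bases before each start. GGGCGG, the GC box bound by SP1 family factors, was present at 67.6% of member starts, 62% of starts with H3K4me3 alone, 36.8% of starts in promoter islands without H3K4me3 and 48.8% of all starts. TATAAA was present at 5.28% of member starts and 10.1% of all starts. CCAAT, the motif of the NF-Y factor, was present at 27.1% of member starts against 33.1% of all starts. CCGGAAG, an ETS factor motif, was present at 3.87% of member starts, 14.3% of starts with H3K4me3 alone and 8.95% of all starts, and none of the motifs contains another. These shares are descriptions of letters in a window and say nothing of binding.

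The share of genes held by members differed between families of development and of the nervous system. A member held the start of 27 of 186 homeobox transcription factor genes (14.5%), 14 of 98 potassium channel genes (14.3%), 9 of 75 axon guidance genes (12%), 6 of 51 genes of Wnt ligands, receptors and antagonists (11.8%) and 7 of 65 developmental zinc finger genes (10.8%), compared with 4.23% of all genes. The homeobox members included DLX1, DLX2, DLX3 and DLX4, 10 HOX genes, which set position along the body axis, and LHX2, MNX1, SIX3 and NKX2-1. Other such families were nearer to the share of all genes, with 2 of 46 forkhead genes (4.35%), 1 of 19 SOX genes (5.26%), 1 of 17 T-box genes (5.88%), 7 of 108 neurotransmitter receptor genes (6.48%) and none of 6 GATA genes. Solute carrier genes, with 20 of 373 (5.36%), and cadherins and protocadherins, with 5 of 96 (5.21%), were near the share of all genes. Only 1 of 85 cytosolic ribosomal protein genes was held (RPL38), and none of 399 olfactory receptor genes, of which 49 lay in promoter islands without H3K4me3. Homeobox genes were found in those islands as well, with 43 of 186 (23.1%, against 9.11% of all genes). Those islands also held 27.6% of potassium channel, 23.5% of Wnt, 14.7% of axon guidance and 12.3% of developmental zinc finger genes. SOX (26.3%), T-box (23.5%) and neurotransmitter receptor genes (25%) were above the share of all genes there too, and forkhead genes (10.9%) were nearer to it. The higher shares in members are therefore not particular to bivalent islands. The lists had been chosen with results of these data known, and the shares were not tested.

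The position of H3K4me3 in the members was described next. With DMSO, an H3K4me3 island covered a gene start in 641 members (84.8%) in replicate 1 and 568 (75.1%) in replicate 2, and in 556 members (73.5%) in both. In 103 members H3K4me3 lay elsewhere in the island in both replicates. The H3K4me3 islands lay wholly within the member in 381 members in replicate 1 and 543 in replicate 2, they crossed an end of it in 299 and 206, and they enclosed it in 76 and 7. The median share of a member under H3K4me3 was 44% in replicate 1 and 23.1% in replicate 2. H3K4me3 islands of replicate 2 were smaller throughout the genome, covering 39.96 Mb with DMSO against 85.21 Mb in replicate 1, and values of H3K4me3 are therefore given per replicate.

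**Figure D2:**
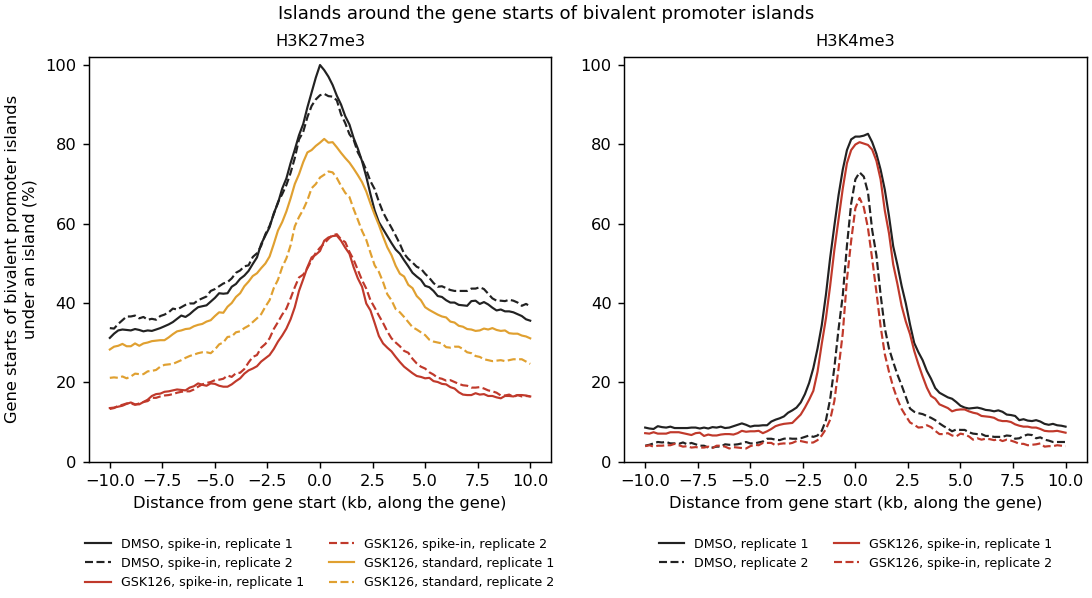
Share of the 853 member gene starts (vertical axis, %) that lie under an H3K27me3 island (left) or an H3K4me3 island (right) at each distance from the start in steps of 200 bp (horizontal axis, kb along the gene), with replicate 1 as solid and replicate 2 as dashed lines. At the start, H3K27me3 covered 100% (by the choice of members) and 92.4% of starts with DMSO and 53.1% and 53.9% with GSK126 in the spike-in lists, whereas H3K4me3 covered 82% and 71.2% with DMSO and 80% and 63.9% with GSK126.

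The effect of GSK126 on H3K27me3 was measured as the share of members that an island of the GSK126 list of the same replicate overlapped by at least 1 bp. In the spike-in lists, where tags had been removed from the GSK126 library by the Drosophila correction factor, 532 of 756 members were overlapped in replicate 1 (70.4%, 95% Wilson interval 67 to 73.5%) and 498 in replicate 2 (65.9%, 62.4 to 69.2%), with a mean of 68.1% ± 3.18 (SD, n = 2). In the standard lists, where both libraries of a replicate held the same number of human tags, 659 (87.2%) and 617 (81.6%) members were overlapped, with a mean of 84.4% ± 3.93 (SD, n = 2). The DMSO standard lists, which were called from the same DMSO libraries that chose the members after tags had been removed and are no independent baseline, overlapped 94.8% and 93.5% of members. In the spike-in lists every member had a DMSO island in both replicates by the choice of members, so a lower share with GSK126 is no finding there. The intervals cover counting error only.

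Covered length gave a similar picture. In the spike-in lists, H3K27me3 islands covered 54.3% of the length of the members with GSK126 in replicate 1, where coverage with DMSO is 100% by the choice of members. In replicate 2 they covered 57.1% with GSK126 and 92.2% with DMSO. The log2 ratios of GSK126 to DMSO were -0.88 and -0.69, with a mean of -0.79 ± 0.13 (SD, n = 2). In the standard lists, coverage was 84.8% with GSK126 against 96.8% with DMSO in replicate 1 and 73.4% against 86.8% in replicate 2, and the log2 ratios were -0.19 and -0.24 with a mean of -0.22 ± 0.04 (SD, n = 2). With 2 replicate pairs an exact sign-flip permutation test cannot give a two-sided p below 0.5, so these differences are only described. The spread between replicates was smaller than each mean, but the choice of members favours lower values with GSK126, so this is no support for a decrease. In the spike-in lists replicate 2 is the fairer value, since its DMSO coverage was not fixed at 100%. The members had been required to carry an island with DMSO and not with GSK126, and how much of the lower coverage comes from this choice was not tested.

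Members with a GSK126 island were longer and higher-scoring than those without. A longer island is more easily overlapped by 1 bp, and an island call does not give the amount of H3K27me3 that was left. In the spike-in lists, 467 members (61.8%) had a GSK126 island in both replicates, against 35.2% of all 32479 islands, and 193 (25.5%) had none in either replicate, against 50.2% of all islands. Members were also longer and higher-scoring than all islands, with median lengths of 7.1 and 5 kb and median scores of 270.3 and 120.2. How much of the difference in share goes with length and score was not tested. The remaining 96 had it in 1 replicate. The median length was 10.4 kb for members with an island in both replicates, 5 kb for those with it in 1 and 4.2 kb for those without, and the median DMSO scores were 533.9, 158.3 and 91.8. With the standard normalization, 605 members (80%, against 59.2% of all islands) had a GSK126 island in both replicates and 85 (11.2%, against 23.1%) in neither. Promoter islands without H3K4me3 had one in both replicates for 55.7% and in neither for 30.6% in the spike-in lists.

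**Figure D3:**
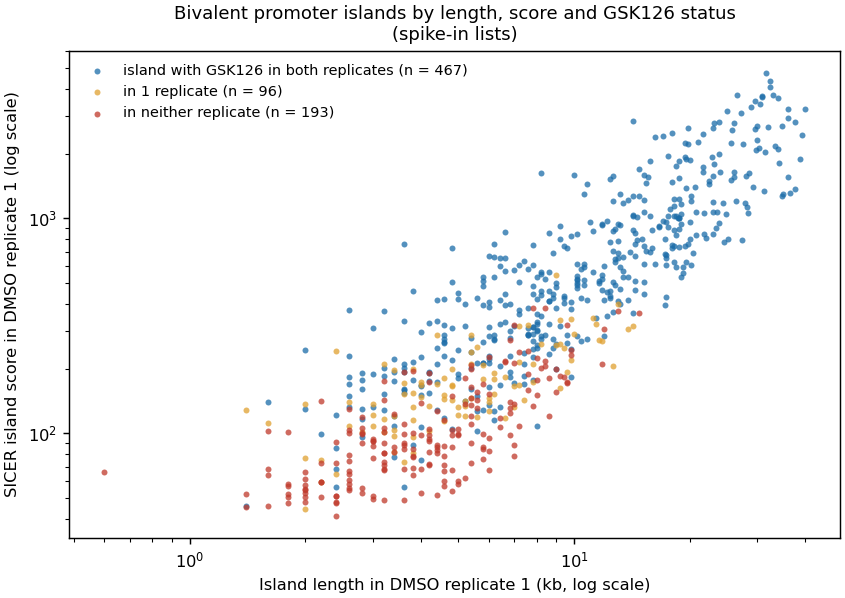
Each point is a member, placed by its length (horizontal axis, kb, log scale) and its SICER score (vertical axis, log scale) in DMSO replicate 1, and coloured by whether an H3K27me3 spike-in island overlapped it with GSK126 in both replicates (467), in 1 (96) or in neither (193). Members without an island lie at the short, low-scoring end, with medians of 4.2 kb and 91.8, against 10.4 kb and 533.9 for members with an island in both replicates.

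The members with the highest scores illustrate this. MCF2L (chr13:113541801-113573400), which encodes a guanine nucleotide exchange factor, had the highest score. Spike-in islands covered 100% of it with DMSO in replicate 2, and 99.4% and 100% with GSK126 in replicates 1 and 2. VASH1 (chr14:77218601-77251000), which encodes a tubulin carboxypeptidase that restrains angiogenesis, was covered over 90.1% with DMSO in replicate 2, and over 73.5% and 83.3% with GSK126. The island over PTH2, GFY and SLC17A7, the last encoding a vesicular glutamate transporter, was covered over 100% with DMSO in replicate 2 and over 89.5% and 94.4% with GSK126. For PDCD1 and RTP5, which share an island and of which PDCD1 encodes the PD-1 receptor of T cells, the values were 100% with DMSO and 84.2% and 91.7% with GSK126. LRCOL1 was covered over 94.6% with DMSO and over 65.5% and 92.7% with GSK126. The 3 longest members behaved alike, with 79.9% and 94% of COL2A1, 81.1% and 88.3% of UBE2QL1, and 74.7% and 75.8% of TMEM132B covered with GSK126. All of these members had an island in both replicates, and each was covered over most of its length.

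At the other end, the highest-scoring members with no GSK126 spike-in island in either replicate were those of TAFA3, PROC, P4HA3, FCHO1 and ASPDH. TAFA3 encodes a secreted chemokine-like protein. Its member (chr1:113258601-113267000) was covered over 100% in DMSO replicate 2 and over 0% in both GSK126 spike-in lists, but over 97.6% and 88.1% in the GSK126 standard lists. PROC encodes the anticoagulant protein C, which the liver secretes. Its member (chr2:128173601-128181400) was covered over 100% in DMSO replicate 2, over 0% in both GSK126 spike-in lists, and over 69.2% and 43.6% in the standard lists. P4HA3 encodes a prolyl hydroxylase subunit that acts on collagen, and FCHO1 a protein of clathrin-mediated endocytosis. In the GSK126 standard lists, P4HA3 was covered over 64.6% and 24.6%, FCHO1 over 43.2% and 0%, and ASPDH over 45.7% and 71.4%. The standard lists thus held an island in 9 of the 10 replicate values of these 5 members.

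Some short and weak members had GSK126 spike-in islands in both replicates. CACNB2, which encodes an auxiliary subunit of calcium channels, had a member of 2.4 kb covered over 75% in DMSO replicate 2 and over 75% and 91.7% with GSK126. PASD1, a cancer-testis gene, was covered over 33.3% and 44.4% with GSK126, ZBTB45, a zinc finger gene, over 25% and 33.3%, and COL26A1, a collagen gene, over 40% and 70%.

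The question of whether H3K4me3 accompanies a different response was addressed by comparison with promoter islands of the same rule without H3K4me3. In the spike-in lists, 63.5% of these were overlapped by a GSK126 island in replicate 1 and 61.6% in replicate 2, which is 6.87 and 4.3 percentage points below the members. The mean difference was 5.58 percentage points ± 1.81 (SD, n = 2), and the exact sign-flip permutation test gave p = 0.5, the smallest it can give. Of the same islands, the standard lists overlapped 83.6% and 80.2%, with differences of 3.57 and 1.42 percentage points and a mean of 2.49 ± 1.53 (SD, n = 2, exact permutation p = 0.5). The share of members was higher in both replicates under both normalizations, by an amount that the design cannot bring past a threshold. Covered length did not show this order throughout, since on the log2 scale the coverage ratio between treatments averaged -0.79 ± 0.13 for members and -0.82 ± 0.12 for islands without H3K4me3 in the spike-in lists, and -0.22 ± 0.04 and -0.21 ± 0.05 in the standard lists (SD, n = 2). Islands under 40 kb without a gene start were overlapped less often, with 40.9% and 37.7% in the spike-in lists, but they were also shorter, with a median of 4.8 kb. All 58 bivalent promoter islands of 40 kb or more were overlapped in both replicates and both normalizations.

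**Figure D4:**
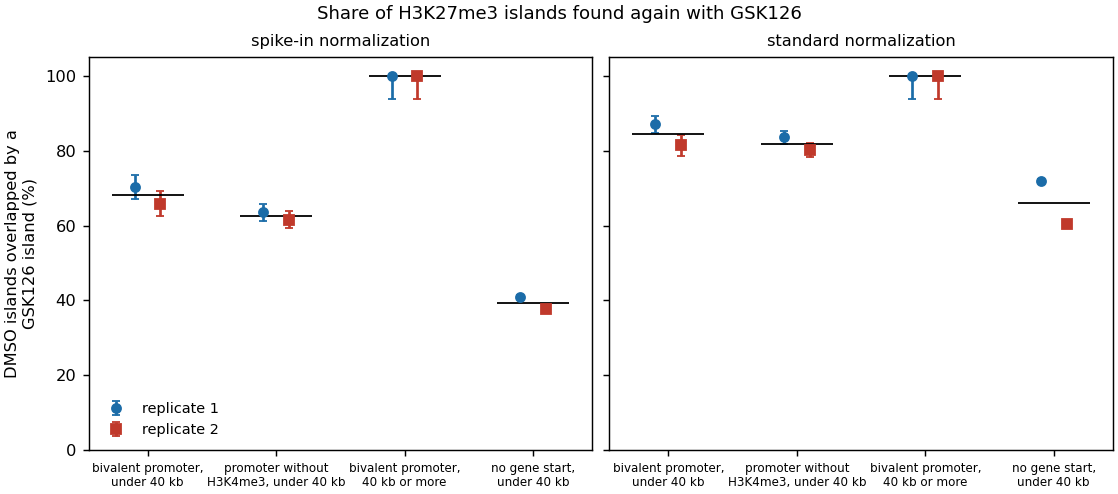
Share of DMSO islands overlapped by a GSK126 island of the same replicate (vertical axis, %) for 4 classes of H3K27me3 islands, in the spike-in lists (left) and the standard lists (right). Points are replicates with 95% Wilson intervals and horizontal lines are means. Bivalent promoter islands under 40 kb lie at 70.4% and 65.9% in the spike-in lists, a few points above promoter islands without H3K4me3 and far above islands without a gene start.

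The difference in share was largest among the shortest islands. Below 5 kb, GSK126 spike-in islands overlapped 44.7% and 38.6% of 246 members against 27.9% and 23.1% of 524 islands without H3K4me3, a difference of 16.9 and 15.5 percentage points. It was 5.15 and 0.89 points from 5 to 10 kb, 6.94 and 3.75 points from 10 to 20 kb, and 0.41 and 1.22 points from 20 to 40 kb, where 100% of the 88 members were overlapped in both replicates. In the shortest class the members also had higher DMSO scores, with a median of 103.1 against 79.2. When promoter islands were instead divided by DMSO score into 4 classes of equal size, the differences were -0.47 and 2.94 points below a score of 111.6, 10.8 and 3.28 from 111.6 to 248, 1.01 and -3.79 from 248 to 647.6, and 0 and 0.24 above. Replicates differed in sign in the lowest class and in that from 248 to 647.6. Both differences were positive from 111.6 to 248, where the standard lists gave 0.58 and -3.53 points. At a similar score the members were therefore not separated from the other promoter islands in both replicates and both normalizations in any score class. By length, the differences were positive in both replicates and both normalizations below 5 kb, with 12.5 and 9.47 points in the standard lists, and from 10 to 20 kb, with 1.25 and 0.82 points there.

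**Figure D5:**
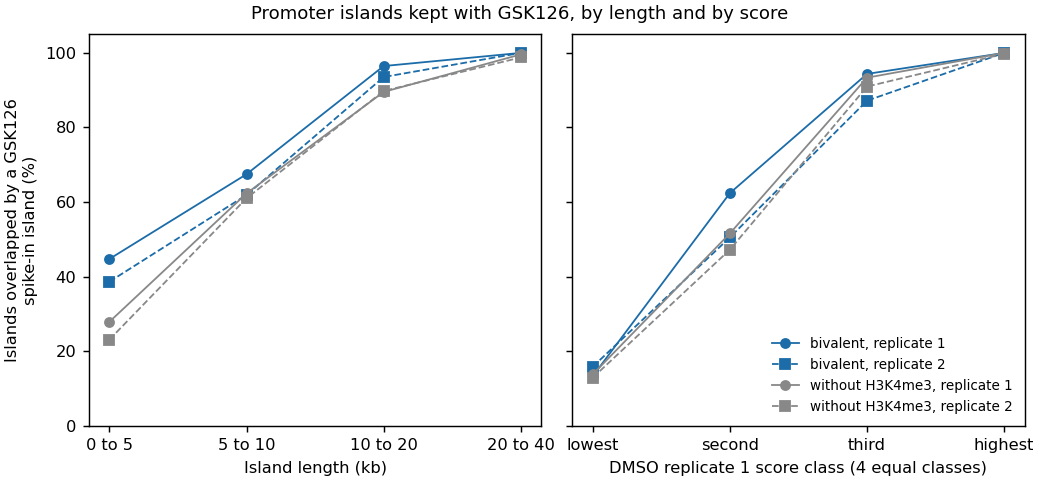
Share of promoter islands overlapped by a GSK126 spike-in island (vertical axis, %) by length class (left) and by class of the DMSO replicate 1 score (right), for bivalent islands and for islands without H3K4me3, with replicates drawn separately. Below 5 kb the bivalent islands lie 16.9 and 15.5 percentage points higher, whereas by score the difference is 10.8 and 3.28 points from 111.6 to 248 and between -3.79 and 2.94 points in the other classes.

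The position of H3K4me3 went along with the length of the member. The 376 members with all H3K4me3 islands inside them in both replicates were overlapped by GSK126 spike-in islands in 84.3% and 80.6%, and the other 380 members in 56.6% and 51.3%. The former had a median length of 9.3 kb and a median score of 422.8, the latter 5.4 kb and 172.5. Members with H3K4me3 over a gene start in both replicates were overlapped in 68.3% and 62.6%, and the 103 members with H3K4me3 away from the start in 83.5% and 82.5%, again with a longer median of 13.2 kb against 6.4 kb. The part of length in these differences was not tested. The CpG ratio differed less, with a median of 0.739 for the gene starts of members with a GSK126 island in both replicates and 0.673 for those of members without.

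Among the gene families, the outcome in the spike-in lists was mostly that of the members at large, in which the median member was covered over 49.1% and 52% of its length with GSK126 in replicates 1 and 2. Of the 23 islands with homeobox genes, 15 had a GSK126 island in both replicates, 3 in neither and 5 in 1, against 61.8%, 25.5% and 12.7% of all members. MEIS3, a cofactor of HOX proteins, was covered over 93.9% and 89.2% with GSK126, EMX1, a factor of the cerebral cortex, over 85.4% and 94.4%, and the shared island of DLX3 and DLX4 over 88.5% and 91.4%. The 3 homeobox genes without a GSK126 spike-in island in either replicate were HOXA11, HOXC11 and SIX3. HOXC11 had a member of 4.8 kb with a score of 54 that was covered over 100% in DMSO replicate 2 and over 0% in all 4 GSK126 lists. NKX2-1 was covered over 0% in replicate 1 and 41% in replicate 2 of the spike-in lists, and over 84.6% and 43.6% in the standard lists.

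All 6 members with basic helix-loop-helix genes had a GSK126 spike-in island in both replicates, against 61.8% of all members and 35.2% of all islands. These are ATOH8, NEUROG2, which specifies neurons, and HEY2, HES3, HES5 and HES6, of the family that holds the Notch effectors. ATOH8 was covered over 55.6% and 100%, HES6 over 60.5% and 67.4%, and NEUROG2 over 84% and 84%. The only T-box member was EOMES, a factor of mesoderm, cortex and T cells, whose 4.6 kb island was covered over 100% in DMSO replicate 2, over 0% in both GSK126 spike-in lists, and over 87% and 65.2% in the standard lists. The only SOX member was SOX18, a factor of vascular endothelium, with 71% and 77.6%. Both forkhead members, FOXA3 with 62.6% and 69.7% and FOXN4 with 72.7% and 39.4%, had a GSK126 island in both replicates.

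Of the 7 developmental zinc finger members, 3 had a GSK126 spike-in island in both replicates, 2 in neither and 2 in 1, against 61.8%, 25.5% and 12.7% of all members. GLI2, an effector of hedgehog signalling, was covered over 92.2% and 88.7% and KLF15 over 31.3% and 60%. EGR4, an immediate early gene, was covered over 16.9% in replicate 1 and 0% in replicate 2, EGR3 had an island in 1 replicate and EGR2 in neither.

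Of the members with genes of secreted signals, 5 of 6 in the Wnt list, 1 of 3 in the TGF-beta list and 2 of 4 in the FGF and hedgehog list had a GSK126 spike-in island in both replicates, against 61.8% of all members. Among Wnt pathway members, the ligands WNT6, WNT10A, WNT10B and WNT11 and the agonist RSPO3 had a GSK126 spike-in island in both replicates and the receptor FZD1 in neither. WNT6 was covered over 57% and 80%, WNT11 over 68.6% and 95.7%, and RSPO3 over 66.7% and 69.7%. INHBB, the activin beta B subunit gene, was covered over 90.4% in each replicate with GSK126. BMP8B, another ligand of the TGF-beta superfamily, had a member of 1.4 kb with a low score of 45.5 and no GSK126 island in any list. The DMSO standard lists also covered 0% of it in both replicates, so the standard lists show no difference between treatments there. CHRDL1, a BMP antagonist, was covered over 100% in replicate 1 and 0% in replicate 2 of the GSK126 spike-in lists. FGFR3, a receptor of fibroblast growth factors, was covered over 76.6% and 68.8%, the ligand gene FGF3 over 61% and 69%, and PTCH1, the hedgehog receptor, over 55.3% and 0%. The ligand FGF18 had no spike-in island with GSK126.

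Of the 14 potassium channel members, 9 had a GSK126 spike-in island in both replicates, 3 in neither (KCNC4, KCND2 and KCNF1) and 2 in 1, against 61.8%, 25.5% and 12.7% of all members. KCNJ4, an inward rectifier that shares its island with KDELR3, was covered over 97.4% and 80.5%, KCNN1, a calcium-activated channel, over 94% and 100%, and KCNH3 over 71.3% and 85.1%. All 5 calcium and sodium channel members had an island in both replicates, and the sodium channel beta subunits SCN4B with 96.1% and 97.4% and SCN3B with 86.1% and 89.9% were covered over most of their length. For axon guidance genes, 8 of 9 members (EFNA3, EPHA6, NTN1, PLXNB2, PLXND1, ROBO3, SEMA3D and UNC5A) had an island in both replicates, again against 61.8% of all members, and SLIT2 was covered over 0% and 100%. Of 7 neurotransmitter receptor members, 5 had it in both replicates, not far from the share of all members, among them CHRM4, a muscarinic receptor, with 78.8% and 54.5%, GABBR2, a GABA receptor subunit, with 36.6% and 28.9%, and CHRNA2 with 82.7% and 100%. ADRB1, the beta-1 adrenergic receptor gene, had none in either replicate.

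Of the 20 members with solute carrier genes, 13 had a GSK126 spike-in island in both replicates, 3 in neither and 4 in 1. Of the 5 with cadherin and protocadherin genes, 4 had it in both and 1 in 1. Among all members, 61.8% had it in both replicates, 25.5% in neither and 12.7% in 1, and the solute carrier members were near these shares. CDKN1C, the cell cycle inhibitor p57, was covered over 47.6% and 44.4% with GSK126 in the spike-in lists, against 74.6% with DMSO in replicate 2. SFTPC was covered over 89.7% and 100%. Of the Polycomb subunits, CBX8, a reader of H3K27me3, was covered over 81% and 87.9%, and SCML2, with a member of 2 kb, over 0% in both replicates. The standard lists went the other way for SCML2, with 0% in both replicates with DMSO and 80% and 70% with GSK126. Its score of 48 was near 41.3, the lowest of the DMSO replicate 1 spike-in list. RPL38 lay in a member of 36 kb that was covered over 77.2% and 80% with GSK126, and its H3K4me3 islands covered 1.2 and 0.4 kb with DMSO.

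The difference between treatments was smaller for H3K4me3 than for H3K27me3 in the spike-in lists. Within members, H3K4me3 islands covered 2.476 Mb with DMSO and 2.227 Mb with GSK126 in replicate 1, and 1.399 and 1.146 Mb in replicate 2. The log2 ratios were -0.15 and -0.29, with a mean of -0.22 ± 0.10 (SD, n = 2). The standard lists gave -0.22 and -0.19, with a mean of -0.21 ± 0.02 (SD, n = 2). The log2 ratio of H3K27me3 was lower than that of H3K4me3 by 0.73 and 0.40 in the spike-in lists, a mean difference of -0.57 ± 0.23 (SD, n = 2). An exact two-sided permutation test over 6 splits, which did not keep the pairing by replicate, gave p = 0.33, the smallest it can give. With the standard normalization the difference was 0.03 and -0.05, with a mean of -0.01 ± 0.06 (SD, n = 2, exact permutation p = 1). The ends of the members were those of H3K27me3 islands with DMSO, which fixed the H3K27me3 coverage of DMSO replicate 1 at 100% and favoured that of replicate 2, whereas H3K4me3 only had to overlap. The difference between the marks is therefore a description, and its p does not test the treatment apart from this choice.

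An H3K4me3 island remained at nearly all members. With GSK126, an H3K4me3 spike-in island overlapped 742 members (98.1%) in replicate 1 and 694 (91.8%) in replicate 2. Only 9 members (1.19%) had none in either replicate, against 2.1% of all 16474 H3K4me3 islands of DMSO replicate 1 that were found in both replicates, and in the standard lists 7 members (0.926%) had none, against 1.38%. The units differ, since any H3K4me3 island within a member counted for it, whereas the other share is of single islands. The lower share of members is therefore no sign that H3K4me3 was kept better there. Members with none included those of PDCD1 and RTP5, DOK7, DAB2IP, EGR2, BEGAIN, SAMD14, MMP24 and CABP7, named here after their values were seen. The H3K4me3 islands of the members named were small with DMSO, from 0.2 to 3.2 kb in replicate 1 and from 0.2 to 1.6 kb in replicate 2.

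At the gene starts themselves, H3K4me3 coverage was compared over the 2 kb on either side. Among 761 member starts with H3K4me3 there in both DMSO replicates, coverage was lower with GSK126 in both replicates of the spike-in lists at 243 (31.9%, against 22% of all 12183 such starts) and higher in both at 62 (8.15%, against 6.99%). Among the 10577 starts with no H3K27me3 island within 2 kb, 21% were lower in both replicates. The summed coverage gave log2 ratios of -0.08 and -0.27 for member starts and -0.03 and -0.10 for starts without H3K27me3. The standard lists gave 34.2% of member starts lower in both replicates, against 23.8% of all starts and 22.6% of those without H3K27me3, and 7.62% higher in both, against 6.01% of all starts. The order was the same when starts were divided by their DMSO coverage, with 26.2%, 32.6% and 39.1% of member starts lower in the spike-in lists for DMSO coverage below 50%, from 50 to 75% and from 75% up, against 15.1%, 20% and 23.1% of starts without H3K27me3. Member starts were thus lower more often in every class and under both normalizations. All starts were chosen by their H3K4me3 with DMSO and classed by that coverage, which favours lower values with GSK126. Before the division into classes, DMSO coverage in replicate 1 averaged 71.8% at member starts and 84.6% at starts without H3K27me3. The classes match covered length and not tags, and how much of the difference comes from this was not tested. Gene starts are not replicates, and no test over the 2 replicates could reach a threshold.

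H3K4me3 coverage was also summed over whole members. The 5 members with the largest decrease in both replicates of the spike-in lists are given here, and none of these differences was tested. HES5, a transcriptional effector of Notch, had 6 and 3.4 kb of H3K4me3 with DMSO in replicates 1 and 2 and 2.8 and 1.4 kb with GSK126, while H3K27me3 covered 70% and 100% of its member with GSK126. LFNG, a glycosyltransferase that modifies Notch receptors, had 8.2 and 2.8 kb with DMSO and 3.8 and 1.8 kb with GSK126. The member of LBHD2 and EXOC3L4 had 9.6 and 4 kb against 3.6 and 0.6 kb, and that of SOX18 and TCEA2 had 5.2 and 1.8 kb against 1.6 and 0 kb. PDE4A, a cyclic AMP phosphodiesterase gene, shares its member with CDC37, an HSP90 co-chaperone gene, and had 13.2 and 8.8 kb against 12 and 4.8 kb. All 5 had an H3K27me3 spike-in island with GSK126 in both replicates, against 61.8% of all members. A ranking by kb favours long members. Members with such an island in both replicates were longer, with a median of 10.4 kb against 4.2 kb for those with none, so this count says nothing of a link between the marks.

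The largest increases in H3K4me3 coverage were smaller. KCNF1 (chr2:11048401-11056400), a subunit that modifies other potassium channels, had 3.8 and 1 kb with DMSO and 4.6 and 2.8 kb with GSK126, and its H3K27me3 spike-in coverage was 77.5% in DMSO replicate 2 and 0% in both GSK126 replicates. PDLIM4, a LIM domain gene, had 1.6 and 0.6 kb against 2.4 and 1.6 kb, and its H3K27me3 coverage was also 0% with GSK126 in both replicates of the spike-in lists. FOXN4, a factor of retinal and spinal neurons, had 1 and 0.8 kb against 2.6 and 1.4 kb, and OPLAH, a gene of the glutathione cycle, 5.2 and 1.4 kb against 6.2 and 2.4 kb. Both of these members had H3K27me3 islands with GSK126 in both replicates. The standard lists gave KCNF1 3.6 and 3.4 kb of H3K4me3 with GSK126 and PDLIM4 1.6 and 1.6 kb, so that the increase in replicate 1 was not seen there for either gene.

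Members were found on every autosome and on the X chromosome. They held 9.11% of the protein-coding gene starts of chromosome 22, 7.42% of chromosome 2 and 6.15% of chromosome 19, compared with 4.23% of all starts. The lowest share of an autosome was 0.437%, on chromosome 21, with a single member. Chromosome X had 19 members with 2.3% of its starts. Chromosome 2, with 81 members, held INHBB, GLI2, EMX1, HES6 and several HOXD and DLX genes.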

How the data were processed

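H3K27me3 and H3K4me3 were measured in PC9 cells treated with DMSO or GSK126, with 2 libraries per group. The authors sonicated the chromatin, immunoprecipitated it together with Drosophila chromatin and an antibody to a Drosophila histone variant, and sequenced 50-nt single-end tags. Tags were aligned to hg19 with BWA, duplicate and non-unique tags were discarded, and the submitters' processing notes also name SAMtools 0.1.18. Tags were then removed at random, within each replicate, and islands were called per library with SICER, with an E-value of 1 against a random background and windows of 200 bp, joined across gaps of 600 bp (H3K27me3) or 200 bp (H3K4me3). H3K4me3 with DMSO had a list per replicate that served both normalizations.

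The deposited value of an island is its score, which depends on the tags in the library and was not compared between lists. The lists give no tag counts, so the depth behind an island is unknown here. Treatment and mark were taken from the labels, whereas replicate numbers and pairs follow the study's own naming of libraries. Libraries were paired because tags had been removed within a replicate. The study describes replicates as biological, but the labels do not, and p-values measure only the spread between these libraries.

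Island starts were counted from 0 in the files and are given here from 1. Gene starts are those of 20144 protein-coding genes of GENCODE version 44 mapped to GRCh37. Overlap means at least 1 bp. Covered length was summed over members, and ratios of GSK126 to DMSO were formed within a replicate. The CpG ratio is the number of CG dinucleotides times the window length divided by the product of C and G. Python 3.11.15, NumPy 2.4.6, SciPy 1.17.1, pysam 0.24.0 and Matplotlib 3.10.9 were used. Overlap and coverage were tested on simulated islands, with 0 errors in 8268 queries.

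Genes named were the 5 highest-scoring members, the 3 longest under and the 3 shortest from 40 kb, the 5 highest-scoring members with no GSK126 spike-in island in either replicate, the 5 lowest-scoring with it in both, the 5 with the largest increase and the 5 with the largest decrease of H3K4me3 coverage of the same sign in both replicates, and the 3 highest-scoring of each gene list. Other members of the lists are named by their outcome only or after their values were seen. MYT1 and CCND2 were also to be named and are not members. Some genes that this rule names are not reported here. The members, the 21 gene lists, the comparisons and the sequences shown were chosen with earlier results of these data known. Alternatives were a stricter score, a larger overlap, autosomes, members from replicate 2 or from the standard lists, a lower length limit, a gene start further inside the island, each replicate alone, no pairing, and another CpG window.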

Additional observations from a re-analysis of the deposited data

How the results depend on the processing

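The 756 members became between 538 and 770 under the alternatives. Of 98 alternative values, 13 moved beyond the limit set for them and 85 did not, and none changed direction. Shares, numbers of members and the CpG ratio are never negative and could not change direction. Tested differences could shrink and still count as not moved. For shares and coverage ratios the limit was the SD between replicates. For tested differences it was a change of direction, and for the number of members a fixed factor. For the CpG ratio it was a part of its interquartile range. With 2 replicates, a share or ratio without replicate 1 or 2 always lies within the SD, so these values could not move. The share of members overlapped by a GSK126 spike-in island, with a mean of 68.1%, was 60.7% with a score at least 2 times the lowest of each list, 50.7% with an overlap of at least 50% of the island, 73.1% with members from the standard DMSO lists, 63.9% with members under 20 kb and 77.5% with gene starts at least 1000 bp inside the island. In the standard lists, with a mean of 84.4%, it was 78.2% with the overlap of at least 50%, 89.5% with members from the standard lists and 91.3% with gene starts at least 1000 bp inside. The log2 coverage ratio of H3K27me3, with a mean of -0.79 in the spike-in lists, was -0.97 with the stricter score and -0.98 under 20 kb. In the standard lists, with a mean of -0.22, it was -0.26 with the stricter score, -0.28 with members from the standard lists and -0.28 under 20 kb. The causes were not tested. Without replicate 1 or 2, the shares were 65.9 to 70.4% and 81.6 to 87.2%, and the H3K27me3 ratios -0.88 to -0.69 and -0.24 to -0.19. Without the replicate block, that is, without pairing, the ratios were -0.79 and -0.22 for H3K27me3 and -0.20 and -0.21 for H3K4me3, and the difference between the marks was -0.59. The difference in the share overlapped from promoter islands without H3K4me3 kept its direction under every alternative run, but its mean of 5.58 percentage points in the spike-in lists was 2.96 with the stricter score, 3.18 with the overlap of at least 50% and 2.93 when H3K4me3 had to cover the gene start, an alternative chosen after the data were seen. In the standard lists its mean of 2.49 was 0.62, 1.34 and 0.66 under these settings. With members from DMSO replicate 2 it was 5.47 and 2.7, and without replicate 1 or 2 it ranged from 4.3 to 6.87 and from 1.42 to 3.57. The median CpG ratio was 0.772 in the RefSeq windows of 250 bases before to 50 after the start, taken from a later genome build, for which 638 of 853 starts were matched. In the same windows the median was 0.768 for all starts and 0.416 for starts in promoter islands without H3K4me3. A ratio of 0.6 or more was reached there by 70.5% of member starts and 66.6% of all starts. The difference in median between members and all starts was thus nearly absent in these windows. The lists hold islands and not tag counts, so a member without a GSK126 island is below the detection limit of that list and may still carry H3K27me3, and short members with low scores lie nearest to that limit. With 2 replicates, no comparison could reach a threshold.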
